A study of Mus musculus with 16 samples.

Results

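Astrocytes keep the extracellular space of the cortex in balance, and 10 genes known for that work were followed here across 16 cortex libraries from 5xFAD mice fed a vehicle or a rapamycin diet. The genes were Gjb6, Gja1, Slc1a2, Slc1a3, Glul, Ntsr2, Aqp4, Sox9, Aldh1l1 and Fam107a. They were picked by gene symbol from the 47593 genes of the count table, 9 of them as textbook astrocyte genes and Fam107a after its higher level in the rapamycin libraries had been seen. The diet contrasts of Fam107a are therefore given as a description with no test, and counts of tested genes run over the other 9. Those 9 were also chosen with earlier results of these data known, so their counts are no independent test of direction. All 10 passed the filter on low counts, which kept 16553 genes.

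All 16 libraries came from heterozygous 5xFAD mice on a mixed C57BL/6 and SJL background, a transgenic Alzheimer's disease model that carries, among its transgenes, human APP with the Swedish, Florida and London mutations, driven in neurons by the murine Thy1 promoter. Rapamycin, an inhibitor of the mTOR kinase, or vehicle was given in chow from 2 months of age, and cortex was taken at 5 months. There were 4 libraries for each sex and diet. The labels named 2 batches, with 11 libraries in batch 1 and 5 in batch 2, and every group had libraries in both. No non-transgenic group was analysed here. The series calls the 4 libraries of a group biological replicates. Figure legends of the study count them as mice, while its text also speaks of pooled cortical samples, and the p-values measure the spread between these libraries.

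In the healthy brain, astrocytes take up synaptic glutamate through the transporters encoded by Slc1a2 (GLT-1) and Slc1a3 (GLAST) and turn it into glutamine with glutamine synthetase, encoded by Glul. They are joined into a network by gap junctions made of connexin 43 (Gja1) and connexin 30 (Gjb6), and their endfeet on blood vessels hold the water channel aquaporin 4 (Aqp4). Aldh1l1 encodes a folate enzyme used as a pan-astrocyte marker, Sox9 an astroglial transcription factor, Ntsr2 a neurotensin receptor found mostly on astrocytes in the cortex, and Fam107a an actin-associated protein known to respond to stress and glucocorticoids.

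The sequences just upstream of 3 of these genes are shown because their female rapamycin libraries lay entirely above the female vehicle libraries, as was the case for 2.13% of all genes tested, and Fam107a had been chosen for its rise. RefSeq promoter entries on GRCm38.p6 matched 8 of the 10 genes, with 3 start sites for Fam107a and 1 for each of the others. Sox9 and Aqp4 had no entry. Each run below is written 5′ to 3′ on the gene's strand, starts 250 bases before the start site, and stops where an annotated exon begins. Capitals mark matches to 4 motifs that were searched on both strands, which were TTGGCA (a half-site of NFI factors), ACAATG (a SOX core), AGAACA (a half-site of the glucocorticoid receptor) and CACGTG (an E-box). The Gjb6 run is chr14:57133612-57133861 on the minus strand, the Ntsr2 run is chr12:16653220-16653381 on the plus strand, and the Fam107a run is chr14:8309796-8310029 on the minus strand, upstream of an internal start.
Gjb6: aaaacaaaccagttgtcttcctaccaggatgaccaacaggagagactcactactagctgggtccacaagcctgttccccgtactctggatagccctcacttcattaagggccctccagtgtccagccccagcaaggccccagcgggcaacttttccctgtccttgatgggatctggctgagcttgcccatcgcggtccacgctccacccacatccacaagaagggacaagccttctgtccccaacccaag
Ntsr2: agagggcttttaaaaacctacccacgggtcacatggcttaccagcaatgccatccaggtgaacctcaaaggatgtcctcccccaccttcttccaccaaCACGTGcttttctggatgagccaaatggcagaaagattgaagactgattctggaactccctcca
Fam107a: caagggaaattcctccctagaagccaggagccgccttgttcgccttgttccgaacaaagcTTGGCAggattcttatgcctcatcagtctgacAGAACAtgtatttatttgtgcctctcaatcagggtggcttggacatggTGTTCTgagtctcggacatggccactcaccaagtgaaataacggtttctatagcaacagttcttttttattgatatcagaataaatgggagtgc
The Gjb6 run held none of the 4 motifs. The Ntsr2 run held 1 E-box, 152 bases before the start, and windows of 250 bases held that motif in 6.02% of 32851 promoters. The Fam107a run, which a neighbouring start 2 bases away shares, held 1 NFI half-site and 2 glucocorticoid receptor half-sites, 1 on each strand, beside shares of 12.3% and 16.1% among all promoters. Among the other promoters of the set, the window of Slc1a3 held 1 glucocorticoid receptor half-site and the windows of Gja1, Glul, Slc1a2, Aldh1l1 and the most upstream start of Fam107a held none of the motifs. ACAATG, which 10.7% of all promoters held, was in none of the windows of the 8 genes. A match describes the letters in a window and was not tested for binding.

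Each library held between 16393501 and 20593089 read pairs assigned to genes. Read pairs of genes encoded by the mitochondrial genome made up 2.64% to 5.47% in vehicle libraries and 3.75% to 6.99% in rapamycin libraries. The slope of log2 CPM against log2 exon length, taken against the mean of all libraries, was below 0, meaning fewer reads from long transcripts, in 6 of 8 rapamycin libraries and in 0 of 8 vehicle libraries, with ranges of -0.127 to 0.0640 and 0.000395 to 0.1005. The library labelled male rapamycin 4 had 512 CPM of Xist and 0 counts over 4 Y-linked genes, while the other 7 male libraries had at most 1.01 CPM of Xist and at least 1915 Y-linked counts. The female libraries had at least 491 CPM of Xist, so by these genes the library labelled male rapamycin 4 looked female. Its label was kept, so the male, sex and interaction values include it. The calls in the diet, sex and interaction comparisons are also given without it. Neuronal markers of cortex were abundant, with a mean of 2887 CPM for Camk2a, and no marker of the astrocyte lists was at 0 in the whole series. Choroid plexus markers, which do not belong to cortex, summed to between 14.7 and 336 CPM in 15 libraries and to 2020 CPM in male vehicle 4.

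The levels of the 10 genes spanned a wide range when expressed per exon length, as FPKM, which scales the CPM used below to the kilobase of exon. Glul was highest at 449 ± 62.5 FPKM (SD, n = 16 libraries), followed by Slc1a2 at 219 ± 51.4 FPKM and Fam107a at 105 ± 21.7 FPKM. Ntsr2 at 69.9 ± 15.7 FPKM, Slc1a3 at 61.5 ± 11.7 FPKM and Gja1 at 58.2 ± 13.5 FPKM lay within each other's spread. Gjb6 followed at 27.2 ± 5.57 FPKM, then Aqp4 at 20.1 ± 5.5 FPKM and Aldh1l1 at 16.8 ± 3.24 FPKM, and the spread of Aqp4 overlapped those of both neighbours while those of Gjb6 and Aldh1l1 did not overlap. Sox9, the only transcription factor of the set, was lowest at 7.98 ± 1.93 FPKM. Levels within 1 gene are given from here on in CPM, the read pairs of a gene scaled to the library's total with TMM factors.

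Rapamycin-fed mice had more of 2 of the 9 tested genes, the connexin gene Gjb6 and the neurotensin receptor gene Ntsr2, in the comparison over both sexes. Both rose by less than 1.5-fold, and none of the 9 genes fell. Across all genes 13.3% were called at an adjusted p under 0.05 in this comparison, 6.46% as higher and 6.86% as lower, and 2.26% were called with a fold of at least 1.5, 0.689% as higher. The fold changes of Glul, Aldh1l1, Slc1a3 and Gja1 were also above 1 but did not pass the adjusted test, and those of Sox9, Slc1a2 and Aqp4 were below 1, so that 6 of 9 were above 1, beside 52.3% of all genes. Both calls were lost when either the length slope or the mitochondrial share of the libraries, which differed between the diets, was in the fit. An unadjusted p under 0.05 was reached by 6 of the 9 genes, beside 30.4% of all genes, and the median log2 fold change of the 9 was 0.25, beside 0.02 over all genes. Since the 9 were chosen with earlier results of these data known, these counts describe them and are no independent test. In bulk cortex, more transcript per astrocyte and more astrocytes cannot be told apart.

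**Figure D1:**
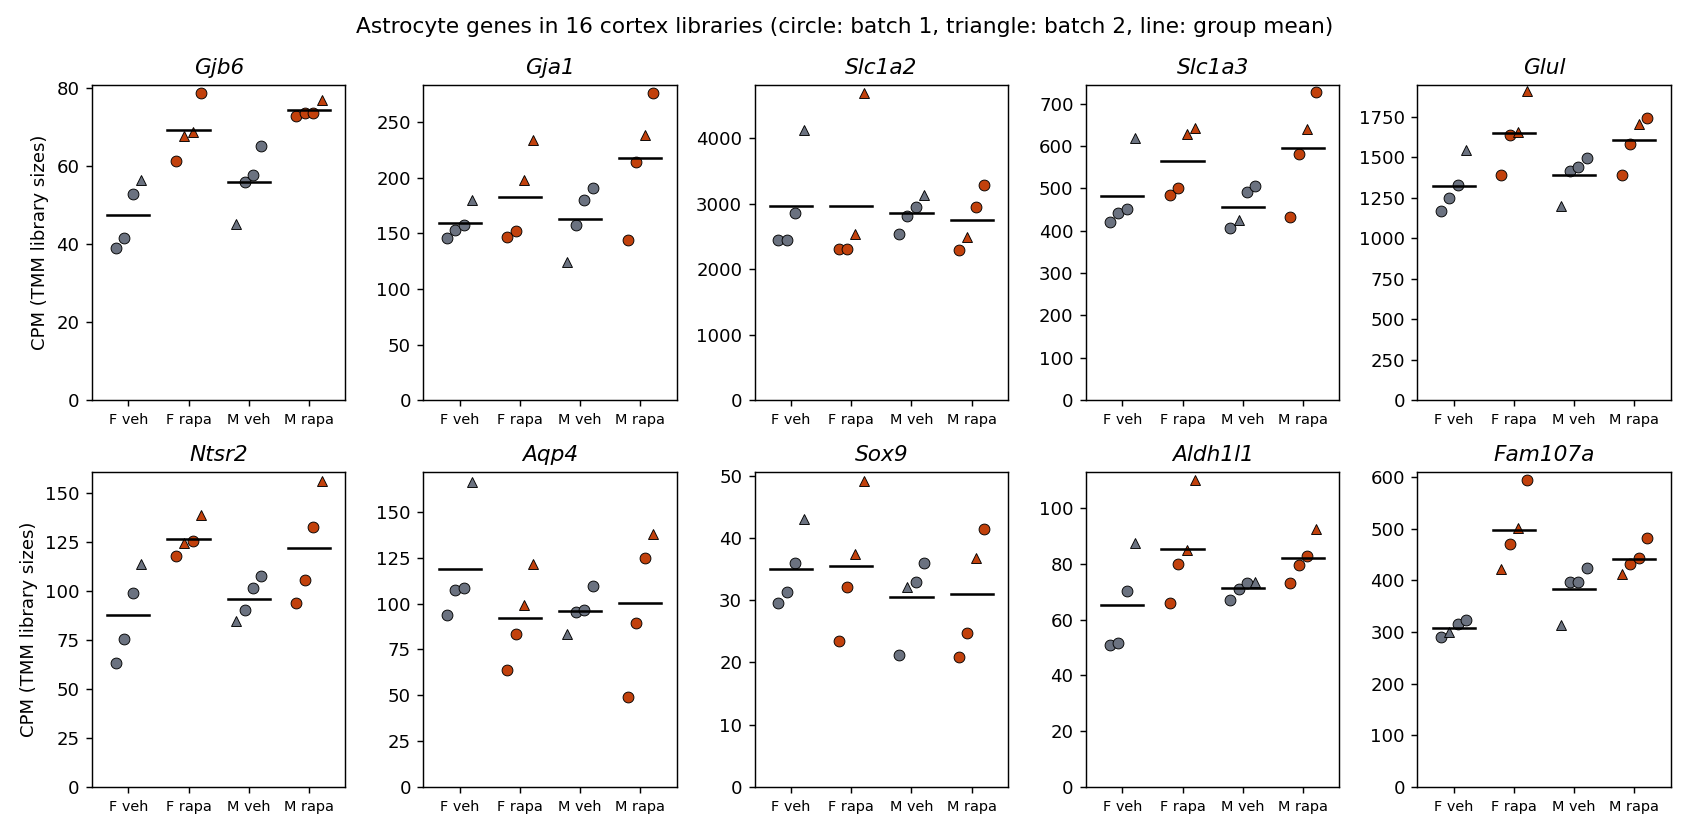
CPM of each gene (y axis, starting at 0) in the 16 libraries by group (x axis; F, female; M, male; veh, vehicle; rapa, rapamycin), with circles for batch 1, triangles for batch 2 and a line at the mean of 4 libraries. The rapamycin libraries of Gjb6 lie above the vehicle libraries within each sex, and those of Ntsr2 and Fam107a do so in females only. Those of Slc1a2, Slc1a3, Gja1, Glul, Aldh1l1, Aqp4 and Sox9 overlap the vehicle libraries in both sexes.

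Gjb6 encodes connexin 30 (ENSMUSG00000040055, chromosome 14, 57123303 to 57133611, minus strand, GRCm38). In female vehicle cortex Gjb6 was at 41.6, 53.0, 39.0 and 56.4 CPM, and in female rapamycin cortex at 61.4, 78.9, 67.8 and 68.7 CPM. In male vehicle cortex Gjb6 was at 57.8, 65.3, 56.0 and 45.1 CPM, and in male rapamycin cortex at 73.8, 72.9, 73.7 and 77.0 CPM. All rapamycin libraries were above all vehicle libraries of the same sex, which held for 2.13% of genes in females and 2.82% in males (in males 3.3% of genes lay entirely lower), but the highest male vehicle library stood above the lowest female rapamycin library. The fold change over both sexes was 1.39, with a log2 value of 0.47 ± 0.09 (SE), a 95% interval of 0.28 to 0.67 and an adjusted p of 0.0119 by edgeR's quasi-likelihood test. Within batch 1 the log2 fold change of Gjb6 was 0.46 (adjusted p = 0.036 by edgeR), and within the 5 libraries of batch 2 it was 0.49 (adjusted p = 0.667). Without the library labelled male rapamycin 4 it was 0.48, with an adjusted p of 0.0201 by edgeR.

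Gja1 encodes connexin 43, the other main astrocyte connexin (ENSMUSG00000050953, chromosome 10, 56377300 to 56390419, plus strand). Its level ranged from 146 to 180 CPM in female vehicle, 147 to 234 CPM in female rapamycin, 124 to 191 CPM in male vehicle and 144 to 276 CPM in male rapamycin cortex. The groups overlapped in both sexes, and within each rapamycin group the highest library of Gja1 was far above the lowest. Its log2 fold change was 0.28 (95% interval 0.01 to 0.56), with an adjusted p of 0.156 in edgeR, and it was 0.14 within batch 1 and 0.55 within batch 2. Without male vehicle 4, the lowest library of Gja1, it was 0.16 over both sexes and 0.22 in males. Over the remaining gap junction genes, 0 of 10 connexin and pannexin genes tested were called in edgeR (13.3% of all genes) or in DESeq2 (21.9%). An unadjusted p under 0.05 in edgeR was reached by 0 of the 10, beside 30.4% of all genes, and their median log2 fold change was 0.01. The most abundant, Panx2 at 156 CPM and the glial connexin gene Gjc3 at 48.9 CPM, had log2 fold changes of 0.09 and 0.02.

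Among the genes of glutamate uptake, the transporter genes did not pass the test and showed wide spread between libraries. Slc1a2 (ENSMUSG00000005089, chromosome 2, 102658659 to 102790784, plus strand) was at 2450, 2439, 2851 and 4121 CPM in female vehicle and at 2307, 2309, 4689 and 2528 CPM in female rapamycin cortex. It ranged from 2537 to 3122 CPM in male vehicle and from 2283 to 3276 CPM in male rapamycin cortex. A single batch 2 library in each female group, female vehicle 4 and female rapamycin 4, stood far above the other 3. The log2 fold change of Slc1a2 was -0.07 (95% interval -0.34 to 0.20; adjusted p = 0.761 by edgeR), and without female rapamycin 4 it was -0.17. Slc1a2 has 13133 bases of exon, the longest of the set, and its sign depended on how exon length was treated, being 0.14 with exon length offsets and 0.36 with the slope against exon length as a covariate.

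Slc1a3 (ENSMUSG00000005360, chromosome 15, 8634124 to 8710764, minus strand) ranged from 420 to 620 CPM in female vehicle, 485 to 642 CPM in female rapamycin, 407 to 505 CPM in male vehicle and 432 to 728 CPM in male rapamycin cortex. Although 7 of the 8 rapamycin libraries were above the vehicle median, the groups overlapped in both sexes. Its log2 fold change was 0.27 (95% interval 0.05 to 0.49) with an adjusted p of 0.0853 in edgeR, and DESeq2 gave an adjusted p of 0.0476. Slc1a3 also passed in edgeR with exon length offsets, at a log2 fold change of 0.42 and an adjusted p of 0.0218.

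Glul, whose product makes glutamine from glutamate and ammonia (ENSMUSG00000026473, chromosome 1, 153899944 to 153909723, plus strand), ranged from 1170 to 1546 CPM in female vehicle and from 1393 to 1910 CPM in female rapamycin cortex. In males it ranged from 1198 to 1498 CPM with vehicle and from 1388 to 1744 CPM with rapamycin. All 8 rapamycin libraries were above the vehicle median, although the groups overlapped. Its log2 fold change was 0.25 (95% interval 0.07 to 0.42), with an adjusted p of 0.0557 in edgeR and 0.0176 in DESeq2. Of 13 other genes of the glutamate and glutamine cycle, 1 rose and 1 fell, beside 6.46% and 6.86% of all genes. Their median log2 fold change was -0.03. Slc1a5, a neutral amino acid transporter present at only 3.87 CPM, rose by 0.82 ± 0.19 (SE) on the log2 scale (adjusted p = 0.0157), and Slc38a1, a glutamine transporter, fell by 0.47 ± 0.10 (adjusted p = 0.014), both in edgeR. Leaving out female rapamycin 4, male rapamycin 1 or male rapamycin 3 brought the number that fell to 2. The vesicular glutamate transporter gene Slc17a7 and the transaminase gene Got1, at 1676 and 426 CPM, had log2 fold changes of 0.07 and 0.03.

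Ntsr2 (ENSMUSG00000020591, chromosome 12, 16653470 to 16660236, plus strand) was at 75.5, 99.1, 63.1 and 113.9 CPM in female vehicle and at 125.6, 118.0, 138.9 and 124.6 CPM in female rapamycin cortex. In males it was at 101.4, 90.4, 107.6 and 84.5 CPM with vehicle and at 132.6, 94.1, 105.7 and 156.3 CPM with rapamycin. The female groups did not overlap (2.13% of all genes in this direction), while the male groups did, with 2 rapamycin libraries inside the vehicle range. The fold change of Ntsr2 over both sexes was 1.32, with a log2 value of 0.40 ± 0.11 (SE), a 95% interval of 0.17 to 0.64 and an adjusted p of 0.0276 by edgeR. This call did not hold within batch 1, where the log2 fold change was 0.36 (adjusted p = 0.099), or within batch 2, where it was 0.50 (adjusted p = 0.667). Leaving out female rapamycin 1, female rapamycin 2 or male vehicle 4 also took the adjusted p of Ntsr2 past 0.05, to 0.0691, 0.0583 and 0.0657, whereas without the library labelled male rapamycin 4 it was 0.0455. With the replicate number in each library's name as a block in place of batch, the adjusted p of Ntsr2 was 0.0531 by edgeR. Of the 6 remaining genes of the neurotensin system none rose and 1 fell, beside 6.46% and 6.86% of all genes. Sort1, a sorting receptor that also binds neurotensin, fell by 0.34 ± 0.09 on the log2 scale (adjusted p = 0.0235 in edgeR). The call of Sort1 was lost without female rapamycin 1, female rapamycin 2 or male rapamycin 2. Sorcs2 and Sorcs3, relatives of Sort1 at 55.8 and 58.8 CPM, had log2 fold changes of -0.14 and -0.11.

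Aqp4 (ENSMUSG00000024411, chromosome 18, 15389394 to 15403684, minus strand) was at 93.9, 107.6, 108.6 and 166.2 CPM in female vehicle and at 83.2, 63.7, 121.6 and 99.4 CPM in female rapamycin cortex. In males it was at 109.5, 96.7, 95.4 and 83.3 CPM with vehicle and at 125.0, 49.0, 89.5 and 138.2 CPM with rapamycin. The male rapamycin libraries spread to both sides of the male vehicle libraries. Its log2 fold change was -0.23 over both sexes (95% interval -0.58 to 0.12; adjusted p = 0.366 by edgeR), -0.48 in females and 0.01 in males. Leaving out single libraries moved it from -0.37 (without male vehicle 4) to -0.14 (without male rapamycin 2) over both sexes, and from -0.20 (without male rapamycin 1) to 0.23 (without male rapamycin 2) in males. With the length slope in the fit it was 0.16. Among 13 other genes of the endfoot and of potassium handling, 3 rose and 1 fell, beside 6.46% and 6.86% of all genes. Hepacam, a glial adhesion molecule, rose by 0.33 ± 0.08 (adjusted p = 0.0175) and its partner Mlc1 by 0.36 ± 0.09 (adjusted p = 0.0212) on the log2 scale in edgeR. The dystrophin gene Dmd, with 23801 bases of exon, fell by 0.29 ± 0.09 (adjusted p = 0.0454 in edgeR). The count that rose was 1 without female rapamycin 1 or male vehicle 4, and the count that fell ran from 0 to 4 as single libraries were left out. The median of the 13 was -0.07, and the abundant sodium pump subunit gene Atp1b2 had a log2 fold change of 0.11 without passing.

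Sox9 (ENSMUSG00000000567, chromosome 11, 112782224 to 112787760, plus strand) ranged from 29.5 to 43.1 CPM in female vehicle, 23.4 to 49.2 CPM in female rapamycin, 21.3 to 36.0 CPM in male vehicle and 20.8 to 41.5 CPM in male rapamycin cortex. The rapamycin range enclosed the vehicle range in both sexes, and the log2 fold change of Sox9 was -0.04 (95% interval -0.34 to 0.26; adjusted p = 0.875 by edgeR). Of 16 other astroglial transcription factor genes, 4 rose and none fell, beside 6.46% and 6.86% of all genes. Their median log2 fold change was 0.13. Id4 and Id3, inhibitors of basic helix-loop-helix factors, rose by 0.50 ± 0.09 (adjusted p = 0.0107) and 0.55 ± 0.14 (adjusted p = 0.0221), and the Notch target Hes1 and the homeobox gene Lhx2 rose by 0.46 ± 0.14 (adjusted p = 0.0358) and 0.33 ± 0.11 (adjusted p = 0.0485) on the log2 scale in edgeR. The count that rose was 1 without female rapamycin 1 or female rapamycin 2, and 2 without female vehicle 2, female vehicle 3, male vehicle 2, male vehicle 4 or male rapamycin 2; without female rapamycin 4, 1 fell. The abundant nuclear factor genes Nfic and Nfix, with log2 fold changes of -0.27 and -0.17, did not pass.

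Aldh1l1 (ENSMUSG00000030088, chromosome 6, 90486427 to 90600203, plus strand) ranged from 51.0 to 87.6 CPM in female vehicle and from 65.9 to 110.2 CPM in female rapamycin cortex. In males it ranged from 67.2 to 73.6 CPM with vehicle and from 73.2 to 92.6 CPM with rapamycin, a range that began just below the top of the vehicle range. Its log2 fold change was 0.25 (95% interval 0.06 to 0.44), with an adjusted p of 0.0701 in edgeR and 0.0424 in DESeq2. The count of Aldh1l1 is less certain than the others, since 499 of its 4516 exon bases are also exon of Gm15756 on the opposite strand and the counting did not use strand. Smaller shares of Glul and Slc1a2 overlap other genes (Teddm2 and Mir8114; Gm13872), at most 3.49% of their exon bases for any 1 of these. Of 13 other folate and one-carbon genes tested, 1 rose, beside 6.46% of all genes. The glycine cleavage gene Amt rose by 0.25 ± 0.07 on the log2 scale (adjusted p = 0.0361 in edgeR), a call lost without any 1 of 9 libraries. Gldc and Mthfd1, the most abundant that did not pass, had log2 fold changes of 0.25 and -0.06.

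Fam107a, whose diet difference led to its choice, is given by its values alone (ENSMUSG00000021750, chromosome 14, 8296274 to 8318023, minus strand). It was at 291, 315, 323 and 300.4 CPM in female vehicle and at 471, 595, 500.5 and 422 CPM in female rapamycin cortex. In males it was at 397, 424, 398 and 313 CPM with vehicle and at 443, 432, 481 and 411 CPM with rapamycin. The lowest female rapamycin library was well above the highest female vehicle library, while in males the lowest rapamycin library was below the highest vehicle library. The log2 fold change of Fam107a was 0.47 over both sexes, 0.74 in females and 0.21 in males, and 0.44 within batch 1 and 0.53 within batch 2. Over fits that left out 1 library each, the value for both sexes ran from 0.41 to 0.51. All these values come from the libraries in which the rise was seen, so they lend it no support. Vehicle-fed females had the lowest level of the 4 groups, 307 ± 14.4 CPM (SD, n = 4), beside 383 ± 47.9 CPM in vehicle-fed males.

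Other genes known to respond to glucocorticoids were counted beside Fam107a. The whole list was written with earlier results of these data known, so its counts are a description and no independent test. In the comparison of both sexes 7 of 18 rose and 1 fell, beside 6.46% and 6.86% of all genes. The metallothionein genes Mt1 and Mt2 rose by 0.91 ± 0.15 and 0.93 ± 0.14, the sulfotransferase gene Sult1a1 by 0.99 ± 0.16 and Tsc22d3, which encodes the glucocorticoid-induced leucine zipper, by 0.70 ± 0.15 on the log2 scale, with adjusted p of 0.0088 for the first 3 and 0.0133 for Tsc22d3 in edgeR. The gene that fell, named after its value was seen, was the glucocorticoid receptor gene Nr3c1, by 0.45 (adjusted p = 0.0195 in edgeR). The abundant genes Klf9 and Per1 had log2 fold changes of -0.34 and 0.22 and did not pass. The median of the 18 genes was 0.46, and 15 of the 18 reached an unadjusted p under 0.05, beside 0.02 and 30.4% over all genes. All 8 calls were lost when either the length slope or the mitochondrial share was made a term of the fit. The count that rose ran from 5 to 9 as single libraries were left out. The count that fell was 2 without male rapamycin 3 or without female rapamycin 4.

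**Figure D2:**
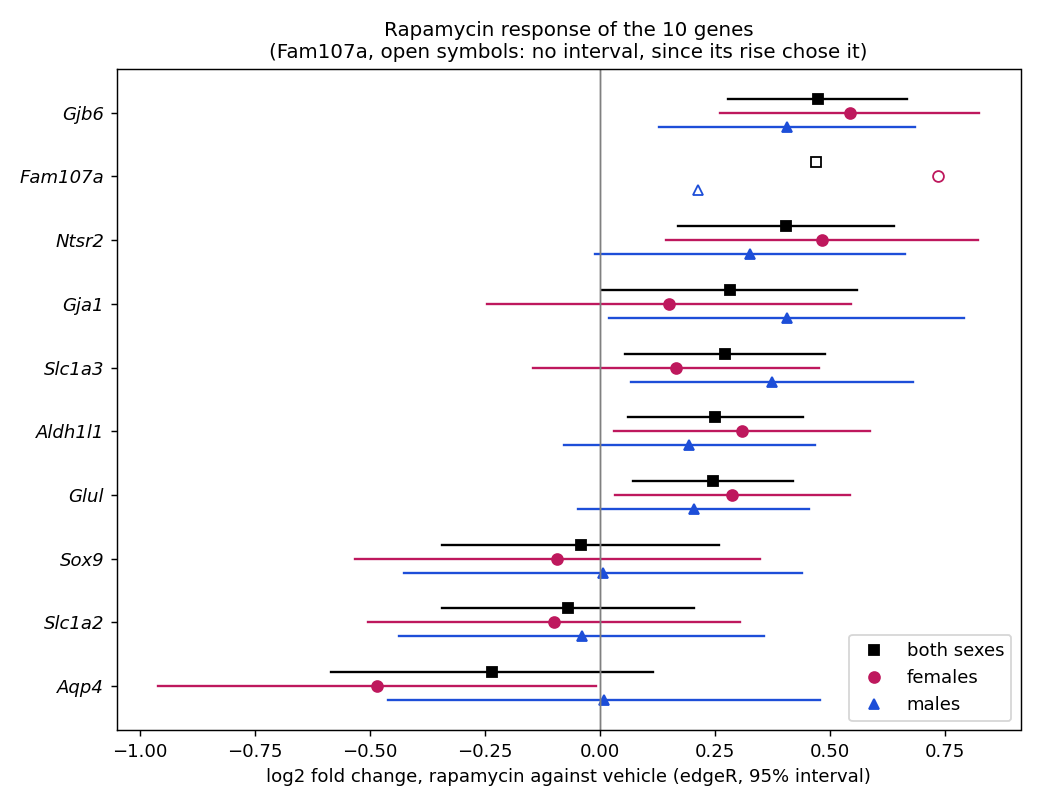
Log2 fold change of rapamycin against vehicle (x axis) for each gene (y axis) in both sexes (black squares), females (circles) and males (triangles), with the 95% interval from edgeR as a line. The intervals of Gjb6 lie above 0 in all 3 comparisons, those of Slc1a2 and Sox9 span 0 in all 3, and Fam107a is drawn without intervals.

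Within each sex, none of the 9 genes passed. In females 0 of 9 were called by edgeR (2 of all genes, 0.0121%), the smallest adjusted p being 0.0694 for Gjb6, whose log2 fold change was 0.54. DESeq2 called 2 of the 9 in females, Gjb6 and Ntsr2, beside 11% of all genes it tested. In edgeR 5 of the 9 reached an unadjusted p under 0.05, 4 as higher and Aqp4 as lower, beside 23.1% of all genes. Leaving out male rapamycin 2, the library labelled male rapamycin 4, female vehicle 4 or female rapamycin 4 brought Gjb6 past the threshold in females, with an adjusted p of 0.0485 without the library labelled male rapamycin 4. In females 6 of 9 fold changes were above 1, beside 52.1% of all genes. In males 0 of 9 were called by edgeR or DESeq2 (0% of all genes in edgeR), and 3 of 9 reached an unadjusted p under 0.05, beside 12% of all genes. There 8 of 9 fold changes were above 1, beside 51.3%, but those of Aqp4 and Sox9 were only 0.01 on the log2 scale. Gjb6 had a log2 fold change of 0.41 in males (95% interval 0.13 to 0.69; 0.38 without the library labelled male rapamycin 4 and 0.29 without male vehicle 4). Without the library labelled male rapamycin 4, 0 of 9 were called in males, and the log2 fold change was 0.40 for Gja1, 0.40 for Slc1a3, 0.24 for Ntsr2, 0.11 for Slc1a2 and -0.06 for Aqp4. The fold changes of 6 of the 9 genes were above 1 in both sexes, and 4 of these were larger in females and 2, Gja1 and Slc1a3, larger in males.

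The difference between the sexes in the response to rapamycin was tested as an interaction. It called 0 of 9 genes in edgeR and in DESeq2 (0% of all genes in both), and 0 of 9 had an unadjusted p under 0.05, beside 2.17% of all genes. The widest interaction among the 9 was that of Aqp4, with a female minus male log2 difference of -0.49 (95% interval -1.16 to 0.17; adjusted p = 0.999 by edgeR). That of Gjb6 was 0.14 (95% interval -0.26 to 0.53). That interval does not exclude a sex difference as large as the log2 fold change of Gjb6 over both sexes. Without the library labelled male rapamycin 4 the interaction was -0.40 for Aqp4 and 0.17 for Gjb6, and again 0 of 9 were called. The interaction was above 0 for 49.3% of all genes and for 4 of the 9.

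Averaged over the diets, male and female cortex did not differ detectably in any of the 10 genes once diet and batch were in the fit. For Fam107a the order of the sexes changed with diet, given here with no test. Its means were 307 CPM in females and 383 CPM in males with vehicle, and 497 and 442 CPM with rapamycin. The comparison of males against females called 0 of 10 in edgeR and in DESeq2, beside 0.0302% of all genes, and 0 of 10 reached an unadjusted p under 0.05, beside 5.99%. The count was also 0 without the library labelled male rapamycin 4. The log2 differences, male over female, ran from -0.13 for Sox9 to 0.18 for Gja1, with 49.3% of all genes above 0. That of Gjb6 was 0.17 (95% interval -0.02 to 0.37), and that of Slc1a2 was -0.0004 (95% interval -0.28 to 0.28).

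Batch differences among the 10 genes were of a size like those between the diets. In batch 2 against batch 1, 1 of the 10 was called higher by edgeR, Aldh1l1 with a log2 difference of 0.35 ± 0.10 and an adjusted p of 0.00999, beside 35.5% of all genes called in either direction and 19.1% called as higher. The log2 difference was above 0 for 9 of the 10 genes, beside 51.6% of all genes, reaching 0.43 for Aqp4, 0.39 for Sox9 and 0.36 for Slc1a2, with adjusted p of 0.0694, 0.0573 and 0.0547. Gjb6 differed by 0.01 between batches (95% interval -0.21 to 0.22), and Fam107a was the gene below 0, at -0.16.

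After sex, batch and diet were removed, the 10 genes still moved together from library to library. Of 45 pairs, 40 had a Pearson r above 0 over the 16 libraries, and the median r was 0.54. The closest pairs were Aqp4 with Gja1 (r = 0.90), Slc1a3 with Gja1 (r = 0.89) and Aqp4 with Slc1a3 (r = 0.85), followed by Glul with Aldh1l1 (r = 0.82) and Gjb6 with Aldh1l1 (r = 0.81). Glul was also close to Gja1 (r = 0.75), Slc1a3 (r = 0.66) and Aqp4 (r = 0.65), while Gjb6 had lower values with these genes, such as 0.18 with Slc1a3. The lowest value of all was that of Gjb6 with Sox9, at -0.22. The 2 connexin genes, whose products share the same junctions, had an r of 0.24. Glul was closest to the mean of the other members (r = 0.94) and Fam107a farthest from it (r = 0.28). These values are a description: all genes of a library share its depth and its tissue piece.

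**Figure D3:**
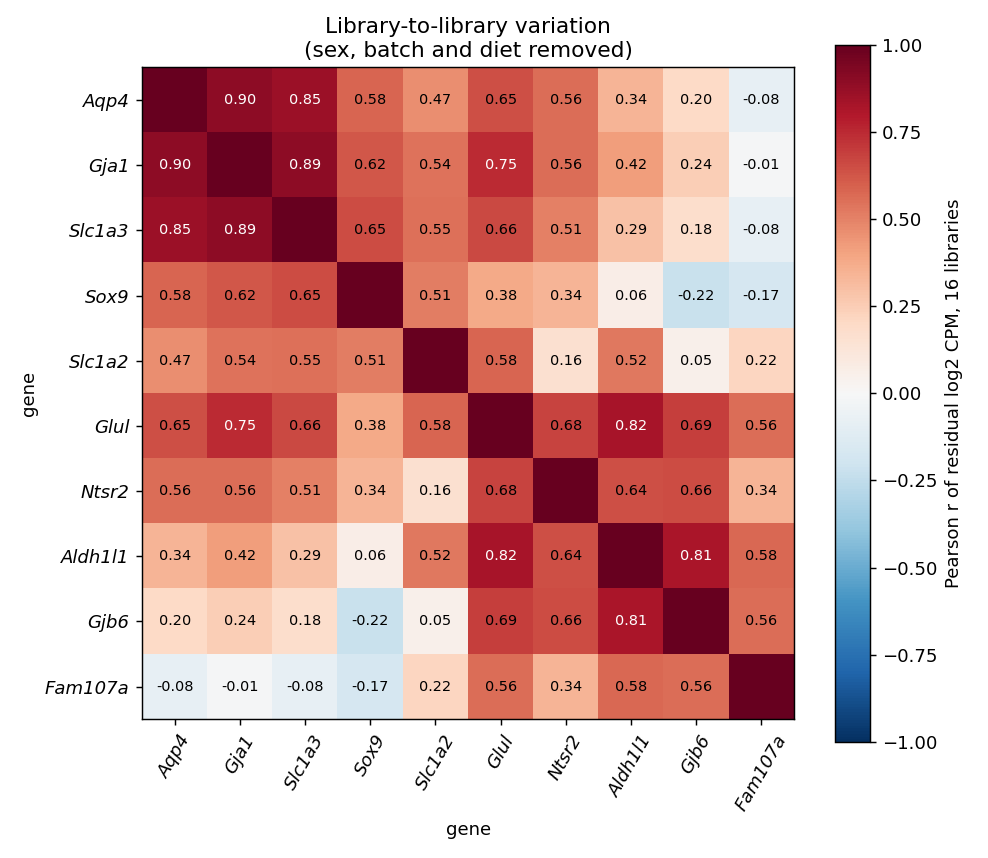
Pearson r of residual log2 CPM between genes (both axes) over 16 libraries, with sex, batch and diet removed, from blue (-1) to red (1). Aqp4, Gja1 and Slc1a3 form a block at 0.85 to 0.90, and Glul, Aldh1l1 and Gjb6 another at 0.69 to 0.82.

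Single libraries stood out in the shared movement. The mean standardized residual of the 10 genes ran from -1.31 in male vehicle 4 to 1.03 in male rapamycin 1. Male vehicle 4 was the library with 2020 CPM of choroid plexus markers, and male rapamycin 2, with the next lowest value of -1.16, had 6.99% mitochondrial read pairs and a length slope of -0.122. Without male vehicle 4 the log2 fold change of Gjb6 was 0.42 and its adjusted p in edgeR was 0.0285. Male rapamycin 2 was also the library with the lowest Aqp4 and the lowest Slc1a2 of the series.

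The genes whose variation was most like the mean of the members, at a mean of 1 CPM or more, were Gm14204 (r = 0.95), Zcchc24 (r = 0.92), Lrp4 (r = 0.91), C030037D09Rik (r = 0.90), Paqr8 (r = 0.90), Gm26944 (r = 0.89), Tbkbp1 (r = 0.89), Ddo (r = 0.89) and Myo10 (r = 0.88), over 16 libraries. None of these 9 was called for rapamycin in edgeR, and the smallest adjusted p among them was 0.0555 for Gm26944. The median r was 0.66 over 36 other astrocyte identity genes and 0.64 over 13 endfoot and potassium genes, beside 0.02 over 14680 candidates. It was 0.30 for astroglial transcription factors and 0.11 for glutamate and glutamine cycle genes. Among markers of other cell types the median r was 0.50 for oligodendrocyte precursors, 0.45 for leptomeninges, 0.38 for endothelium and 0.27 for microglia. For oligodendrocytes it was 0.11, for GABAergic neurons 0.03, for choroid plexus -0.39 and for glutamatergic neurons -0.41.

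Among 36 other astrocyte identity genes 11 rose and none fell in edgeR, and 32 had a log2 fold change above 0, with a median of 0.25. Over all genes 6.46% rose, 6.86% fell and 52.3% were above 0. Sdc4, a cell surface proteoglycan, rose by 0.61 ± 0.10 (adjusted p = 0.0088), the secreted protease gene Htra1 by 0.50 ± 0.09 (adjusted p = 0.0088), the glycolytic enzyme gene Aldoc by 0.40 ± 0.07 (adjusted p = 0.0104) and the proline dehydrogenase gene Prodh by 0.44 ± 0.09 (adjusted p = 0.0128) on the log2 scale in edgeR. The most abundant that did not pass were Gpr37l1 and the GABA transporter gene Slc6a11, at 0.26 and -0.07. The count that rose was 16 in DESeq2 and 8 with exon length offsets, where 21.9% and 5% of all genes were called in either direction. It was 7 without female rapamycin 1 or female rapamycin 2 and 6 without male vehicle 4. With the length slope or the mitochondrial share in the fit it was 0. These lists were written with earlier results of these data known, so their counts describe the genes and are no independent test of direction.

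None of the genes of reactive astrocytes passed. Of 15 reactive astrocyte genes tested, 0 were called by edgeR, 2 by DESeq2 (1 in each direction) and 3 reached an unadjusted p under 0.05, while 4 had a log2 fold change above 0, with a median of -0.16. Over all genes in edgeR 13.3% were called, 30.4% reached that unadjusted p and 52.3% were above 0. Gfap, the intermediate filament gene of reactive astrocytes, was at 499 CPM with a log2 fold change of -0.42 (adjusted p = 0.206), and the complement gene C4b had -0.41 (adjusted p = 0.246 in edgeR). Leaving out single libraries gave at most 2 that rose and 1 that fell. The summed level of the list ran from 635 to 1223 CPM in vehicle and from 380 to 982 CPM in rapamycin libraries, which overlap.

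**Figure D4:**
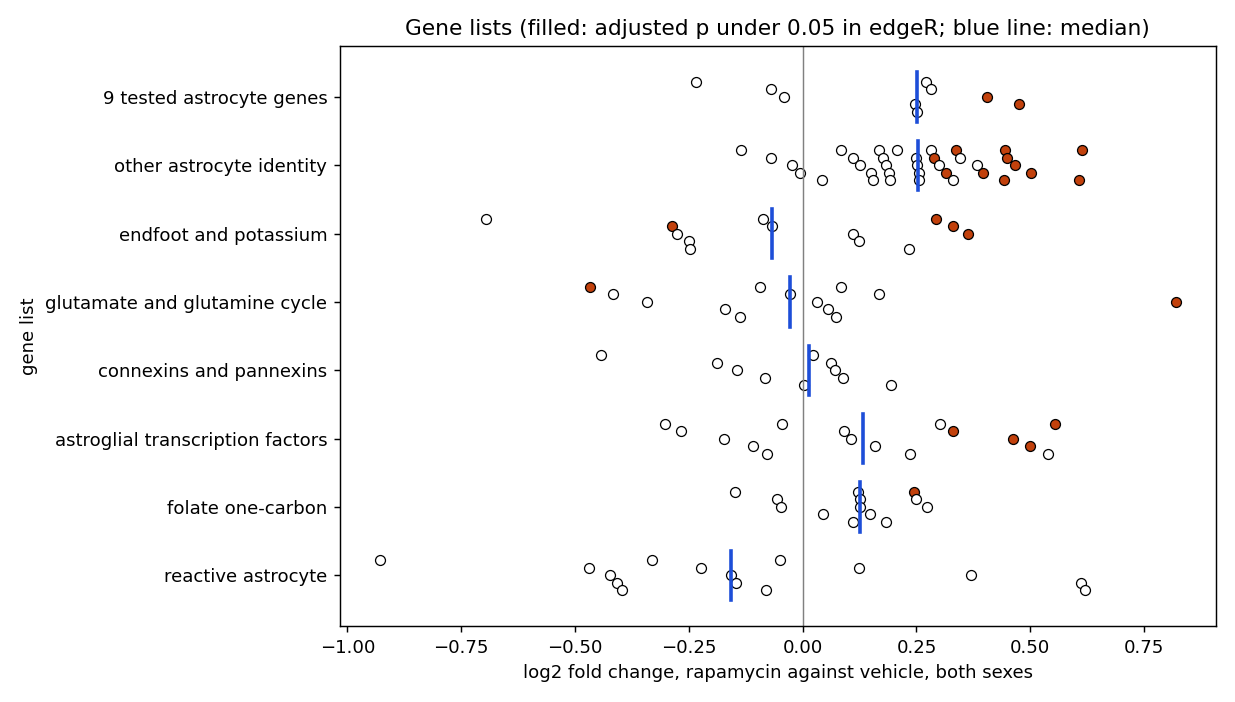
Log2 fold change of rapamycin against vehicle in both sexes (x axis) for the 9 tested members and for genes of 7 lists (y axis), with filled points for genes at an adjusted p under 0.05 in edgeR and a blue line at each median. The members and the other astrocyte identity genes have medians of 0.25, and the reactive astrocyte genes have a median of -0.16 with no filled point.

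Markers of other cell types were counted in the same fit, in which 6.46% of all genes rose and 6.86% fell. None of the GABAergic neuron (10), oligodendrocyte (10), oligodendrocyte precursor (7), microglia (14) or leptomeninges (8) markers was called by edgeR (in that order, unadjusted p-values under 0.05 numbered 2, 3, 0, 2 and 0, and DESeq2 calls 1, 2, 0, 2 and 0), and 1 of 10 glutamatergic neuron markers fell. Of 10 endothelial markers 2 rose, Ly6c1 and the glucose transporter gene Slc2a1, by 0.59 and 0.49, and the receptor gene Kdr fell by 0.49. These 4 calls were each lost when some single libraries were left out, among them female vehicle 3 and female rapamycin 1. Of 10 choroid plexus markers 5 fell, Mfrp by 3.10, and the count was 0 without male vehicle 4 and 2 or 3 without any 1 of 6 other libraries. The summed endothelial markers ran from 364 to 521 CPM in vehicle and from 399 to 578 CPM in rapamycin libraries, and their part in the values of the 10 genes was not tested.

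The 2 genes that passed were also those with the least exon sequence. Ntsr2 has 1547 and Gjb6 2269 bases of exon, both in the shortest of 4 length bins, in which the median log2 fold change of all genes was 0.20. In the longest bin, which holds Slc1a2 and Slc1a3 (8537 bases), the median of all genes was -0.14. Over the 10 members log2 fold change and log2 exon length had a Pearson r of -0.57 and a Spearman rho of -0.70, beside a Pearson r of -0.35 over all genes tested, as a description. Fam107a, with 3870 bases, had a bin median of -0.02.

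**Figure D5:**
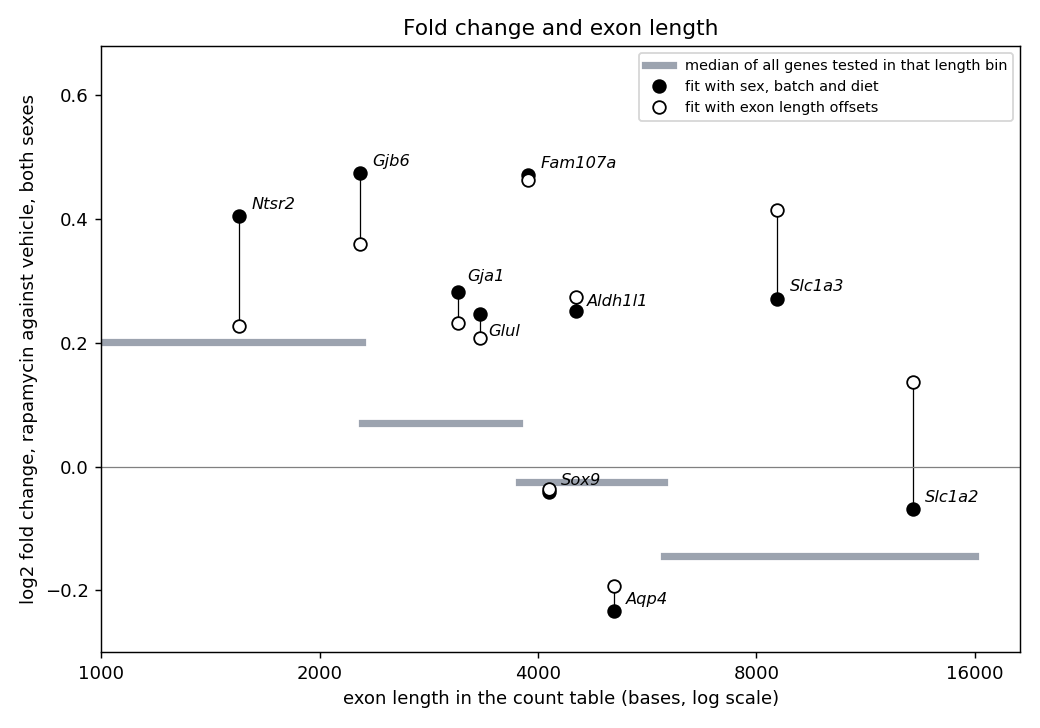
Log2 fold change of rapamycin against vehicle in both sexes (y axis) against exon length in bases (x axis, log scale) for the 10 genes in the fit with sex, batch and diet (filled) and with exon length offsets (open), with grey lines at the median of all genes tested in each of 4 length bins. Ntsr2 and Gjb6 move down with the offsets, to 0.23 and 0.36, and Slc1a3 and Slc1a2 move up, to 0.42 and 0.14.

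With offsets that removed the trend of log2 CPM with exon length within each library, Gjb6 kept its call at a log2 fold change of 0.36 (adjusted p = 0.0269 by edgeR), while Ntsr2 did not at 0.23 (adjusted p = 0.211). With each library's length slope as a term in the fit, 0 of the 9 members and 0 of all 16553 genes were called by edgeR, and the log2 fold change of Gjb6 was 0.37 (adjusted p = 0.769). With the mitochondrial share as a term the counts were also 0 and 0, and the log2 fold change of Gjb6 was 0.52 (adjusted p = 0.537). The slope and the mitochondrial share moved with the diet, and how far they and the diet contribute to the fold changes cannot be told apart in these libraries.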

How the data were processed

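Poly(A) RNA of mouse cortex was measured in 16 libraries by paired-end sequencing. The authors deposited raw read-pair counts per gene: per the labels and the file headers, reads were trimmed (Trim Galore, Trimmomatic 0.39) and checked (FastQC 0.11.9), aligned with HISAT2 2.2.1 to mm10, and exon counts per gene name were taken with featureCounts 2.0.3 without strand. By that program's defaults, pairs overlapping 2 genes were left out. The exon length column of the deposited counts gave FPKM.

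Genes were kept by filterByExpr over the 4 groups (minimum count 10), scaled by TMM and tested with edgeR 4.0.16 (R 4.3.3), glmQLFit and glmQLFTest, with Benjamini-Hochberg adjustment over 16553 genes. Both sexes together were fitted with sex, batch and diet, and each sex and the interaction with 4 groups and batch. A gene was called at an adjusted p under 0.05. SEs and 95% intervals came from the same fit. Residual correlations used log2 CPM (prior count 2). The code was tested on simulated counts. Alternatives were DESeq2 1.42.0, its size factors, no filter, no batch term, each batch alone, a replicate block, exon length and mitochondrial terms, and leaving out each library. Replicate numbers were not used to pair libraries: no label gives them a meaning, and of 21 same-number pairs 18 had residual correlations over 0.1 but not all (-0.16 to 0.67, and -0.43 to 0.37 with batch removed). Even so, 12 of 15 libraries had their closest library of another group under their own number, so a pairing is not excluded.

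The members and gene lists were chosen with earlier results of these data known. Named genes were the members, up to 4 called genes with the smallest p and up to 2 abundant uncalled genes of each list, and the 10 genes most like the members, of which some are not reported here. Promoter sequences came from RefSeq on GRCm38.p6. Protein sequences were not analysed here.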

Additional observations from a re-analysis of the deposited data

Results flagged for a closer look

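Slc1a2 and Slc1a3, the genes of the 2 astrocyte glutamate transporters, each had 1 library far from the other 3 of its group. In female rapamycin 4, Slc1a2 was at 4689 CPM, beside 2307 to 2528 CPM in the other 3 libraries. In female vehicle 4, Slc1a3 was at 620 CPM, beside 420 to 452 CPM in the other 3 libraries. Each was set apart because the gap to its nearest neighbour took 0.907 and 0.839 of the whole range of the group. Of 40 groups of 4 libraries examined, 2 stood out in this way, and chance sets apart about 1 in 20. Both libraries belong to batch 2.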

How the results depend on the processing

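The call of Gjb6 and Ntsr2 in both sexes, 2 of 9 genes, was also 2 with DESeq2 size factors, with no filter on low counts and, as Gjb6 and Slc1a3, with exon length offsets. It was 5 in DESeq2 (Gjb6, Ntsr2, Glul, Aldh1l1 and Slc1a3; 21.9% of all genes it tested), 1 with no batch term, 1 within batch 1, 0 within batch 2, and 0 with the length slope or with the mitochondrial share as a covariate. Leaving out each library gave 1 to 2. In females the count was 2 in DESeq2 (11% of all genes), 3 with no filter (Gjb6 and Ntsr2 as higher and Aqp4 as lower, at -0.49 with an adjusted p of 0.0096; 5.55% of all genes), 1 within batch 1 and 0 to 1 leaving out each library. In males, in the interaction and between the sexes no alternative (batch 2 alone aside) moved the count from 0. With the replicate block in place of batch the count in both sexes was 1, with Ntsr2 at 0.40 and an adjusted p of 0.0531, and the calls over all genes fell from 2205 to 1298; 12 of 15 libraries had their closest library of another group under their own number, and the block changed no other member's call.

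Leaving out single libraries moved the calls over all genes from 719 (without female rapamycin 1) to 3352 (without female rapamycin 4). Over all genes DESeq2 called 3131 in both sexes, 1503 in females and 27 in males, beside 2205, 2 and 0 in edgeR; no filter gave 1678 in females and 526 in males, and no batch term gave 142 in both sexes and 1 in females. Within batch 1 the counts were 1240 in both sexes and 1290 in females, and within batch 2 the count was 3 in both sexes. Batch 2 holds 1 library of each group but female rapamycin, so its counts within a sex test nothing and are not given. Length offsets gave 828 in both sexes, and the length slope or mitochondrial share gave 0 in both sexes and 1 in females. The interaction, with 0 calls, had 87 with no filter, and the 5 calls between the sexes became 113 with no filter and 11 in DESeq2.

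Of 260 member fold changes under alternatives, 10 changed sign, none of them called, and the cause was not tested. Aqp4 was at 0.16 with the length slope. Slc1a2 was at 0.36 with the length slope, 0.083 with the mitochondrial share and 0.14 with length offsets. Sox9 was at 0.022 with no batch term, 0.094 within batch 2, 0.21 with the length slope, and between -0.17 and 0.026 leaving out each library. List counts, under alternatives chosen after seeing the data, were all 0 with the length slope or the mitochondrial share. Depth was at least 16393501 read pairs a library, and 4 libraries a group limited the precision within a sex.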
